A study of Rattus norvegicus with 20 samples.

Results

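Kruppel-like factors are transcription factors that bind DNA through a block of zinc fingers at the end of the protein, and 9 of the rat genes that encode them were followed here across 20 microarrays of heart cells. The genes were Klf2, Klf3, Klf4, Klf5, Klf6, Klf9, Klf10, Klf13 and Klf15. The array's own gene names, read without the ending for predicted genes, gave 7 of them with 11 probes. Klf3 stood under a name with another ending, and Klf13 stood under the predicted gene RGD1565099, a RefSeq synonym of Klf13. These 2 were added, which made 9 genes and 13 probes of 35561 genes and 41012 probes on the array. All 9 genes had a probe that passed the filter on dim probes, and 12 of the 13 probes passed it.

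The RNA came from primary heart cell cultures of neonatal rats, labelled as cardiomyocytes, grown for 1 day and then given celecoxib, an inhibitor of the enzyme cyclooxygenase 2. Celecoxib was used at reference concentrations of 1/25, 1/5 and 1, for 24 h or for 6 h, with 3 arrays in each of these 6 groups, and 2 arrays of untreated cells had no stated time or vehicle. Absolute concentrations are not stated in the sources used here, and no label says whether replicates were separate cultures, so that the spread behind each p-value is that between arrays and may be technical. All 11 cardiomyocyte markers were well above background on all 20 arrays, as were 5 of 8 fibroblast, 4 of 4 smooth muscle, 4 of 6 macrophage and 1 of 7 endothelial markers on the array.

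Levels are given as log2 of the scanner's processed signal minus the 75th percentile of the array, so that 0 is that percentile, and levels of different probes are not comparable. Between 63.6% and 83.1% of probes were well above background on an array, and 5.75% to 9.21% were saturated. The arrays were scanned on 2 days. Day 2 held 6 arrays, all of celecoxib for 6 h: replicate 3 at concentration 1, the 3 arrays at 1/5, and replicates 2 and 3 at 1/25. The scan day was therefore a term of the limma fit, and 32.4% of genes were called between scan days. By the ratio of the 75th percentile to the median signal, celecoxib 1/25 for 6 h replicate 3 was the highest (7.0) and replicate 1 of the untreated cells the lowest (4.07). These are the 2 arrays named below as standing apart. Celecoxib 1/25 for 6 h replicate 1 (6.77) lay close to the highest and was not among them.

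KLF proteins bind CACCC elements and other GC-rich elements, and some activate while others repress through corepressors such as CtBP and Sin3A. Several are immediate or hormone-driven response genes, so that their messenger RNA can change within hours of a stimulus. In the heart, KLF15 restrains hypertrophic growth and drives the use of branched-chain amino acids and lipids, while KLF5, KLF6 and KLF10 are known from fibroblasts and remodelling, and KLF2 and KLF4 from endothelium under flow.

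Of the promoters in the RefSeq table (build GRCr8), 6 belonged to these genes: Klf3, Klf4, Klf5, Klf6, Klf9 and Klf15. The 250 bases before the start of Klf15 and of Klf3 are shown because these 2 genes had the called differences below. Capitals mark the CACCC element that KLF proteins bind (CACCC, or GGGTG on the other strand) and, in Klf15, the E-box CACGTG. The first sequence is chr4:124522765-124523014 on the plus strand and the second chr14:43850827-43851076 on the minus strand.
Klf15 promoter: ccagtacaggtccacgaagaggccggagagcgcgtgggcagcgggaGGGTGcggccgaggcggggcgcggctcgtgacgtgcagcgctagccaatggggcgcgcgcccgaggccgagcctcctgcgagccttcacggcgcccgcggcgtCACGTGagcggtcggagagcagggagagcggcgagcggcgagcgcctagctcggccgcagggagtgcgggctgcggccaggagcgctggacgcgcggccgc
Klf3 promoter: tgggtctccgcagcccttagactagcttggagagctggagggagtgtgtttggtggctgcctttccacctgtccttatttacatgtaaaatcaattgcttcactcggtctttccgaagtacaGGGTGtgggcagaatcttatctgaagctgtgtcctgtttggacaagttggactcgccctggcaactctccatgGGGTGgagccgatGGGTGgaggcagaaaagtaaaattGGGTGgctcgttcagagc
The Klf15 stretch is 77.2% G and C and holds 1 CACCC element, 204 bases before the start, and 1 E-box, 101 bases before it. The Klf3 stretch is 52.0% G and C and holds 4 CACCC elements, at 128, 55, 42 and 18 bases before the start. Over all 33469 promoters of the table, read over the same length and both strands, 49.2% held at least 1 CACCC element, 2.18% held 4 or more and 5.59% held an E-box. Among the 6 promoters, CACCC elements were found in 4 (Klf3, Klf5, Klf9 and Klf15), E-boxes in 2 (Klf6 and Klf15) and the GC box GGGCGG, or CCGCCC on the other strand, in Klf6, where 30.5% of all promoters held it. The CRE half-site TGACGT, or ACGTCA, was found in Klf9 and Klf15 and in 6.95% of all promoters, and the half-site AGAACA, or TGTTCT, of the glucocorticoid receptor in 0 of the 6 and 17.5% of all. A match only says that these letters are present.

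Between 24 h and 6 h of celecoxib, averaged over the 3 concentrations, Klf15 was higher at 24 h and the other 8 genes did not pass (1 of 9 called), where 4.52% of 27760 genes were called and 3.13% called higher. Against untreated cells, Klf3 was lower after celecoxib 1/25 for 6 h (1 of 9 called), where 11.6% of all genes were called and 8.96% called lower, so that this count stands near the background. No Kruppel-like factor was called after celecoxib 1 for 6 h, where limma called 8.22% of all genes and 1 of the 9 and 29.6% of all genes had an unadjusted p below 0.05. After 1/5 for 6 h limma called 1.14% of all genes and none of the 9, and 3 of the 9 and 20.8% of all genes had such a p. None was called after 24 h at 1/25, 1/5 or 1, where 0.854%, 1.4% and 0.465% of all genes were called and 0, 2 and 0 of the 9 had an unadjusted p below 0.05, as did 15.6%, 21.1% and 15% of all genes. The median difference of the 9 genes from untreated ran from 0.02 to 0.27 over these 6 comparisons, while the median over all genes stayed within 0.1 of 0.

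No Kruppel-like factor differed between concentrations in limma. The 4 comparisons were concentration 1 against 1/25 and against 1/5 and 1/5 against 1/25 at 24 h, and 1 against 1/25 at 6 h. They called 0.0072%, 0.0144%, 0% and 0% of all genes, and 0, 1, 1 and 0 of the 9 genes had an unadjusted p below 0.05, as did 4.9%, 8.6%, 7.23% and 5.56% of all genes. The test of whether the effect of concentration 1 over 1/25 differed between 24 h and 6 h called 0% of all genes, and before adjustment 0 of the 9 genes and 4.43% of all had a p below 0.05.

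The direction of the calls over all genes depended on the scaling. Of the genes called between 24 h and 6 h, 69.3% were higher at 24 h, against 54.8% after normexp background correction. Of those called after celecoxib 1/25 for 6 h, 22.6% were higher than untreated, against 37.4% after quantile normalization and 75.2% in the authors' deposited value table, which also moved the median of all genes by 0.439 in that comparison.

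**Figure D1:**
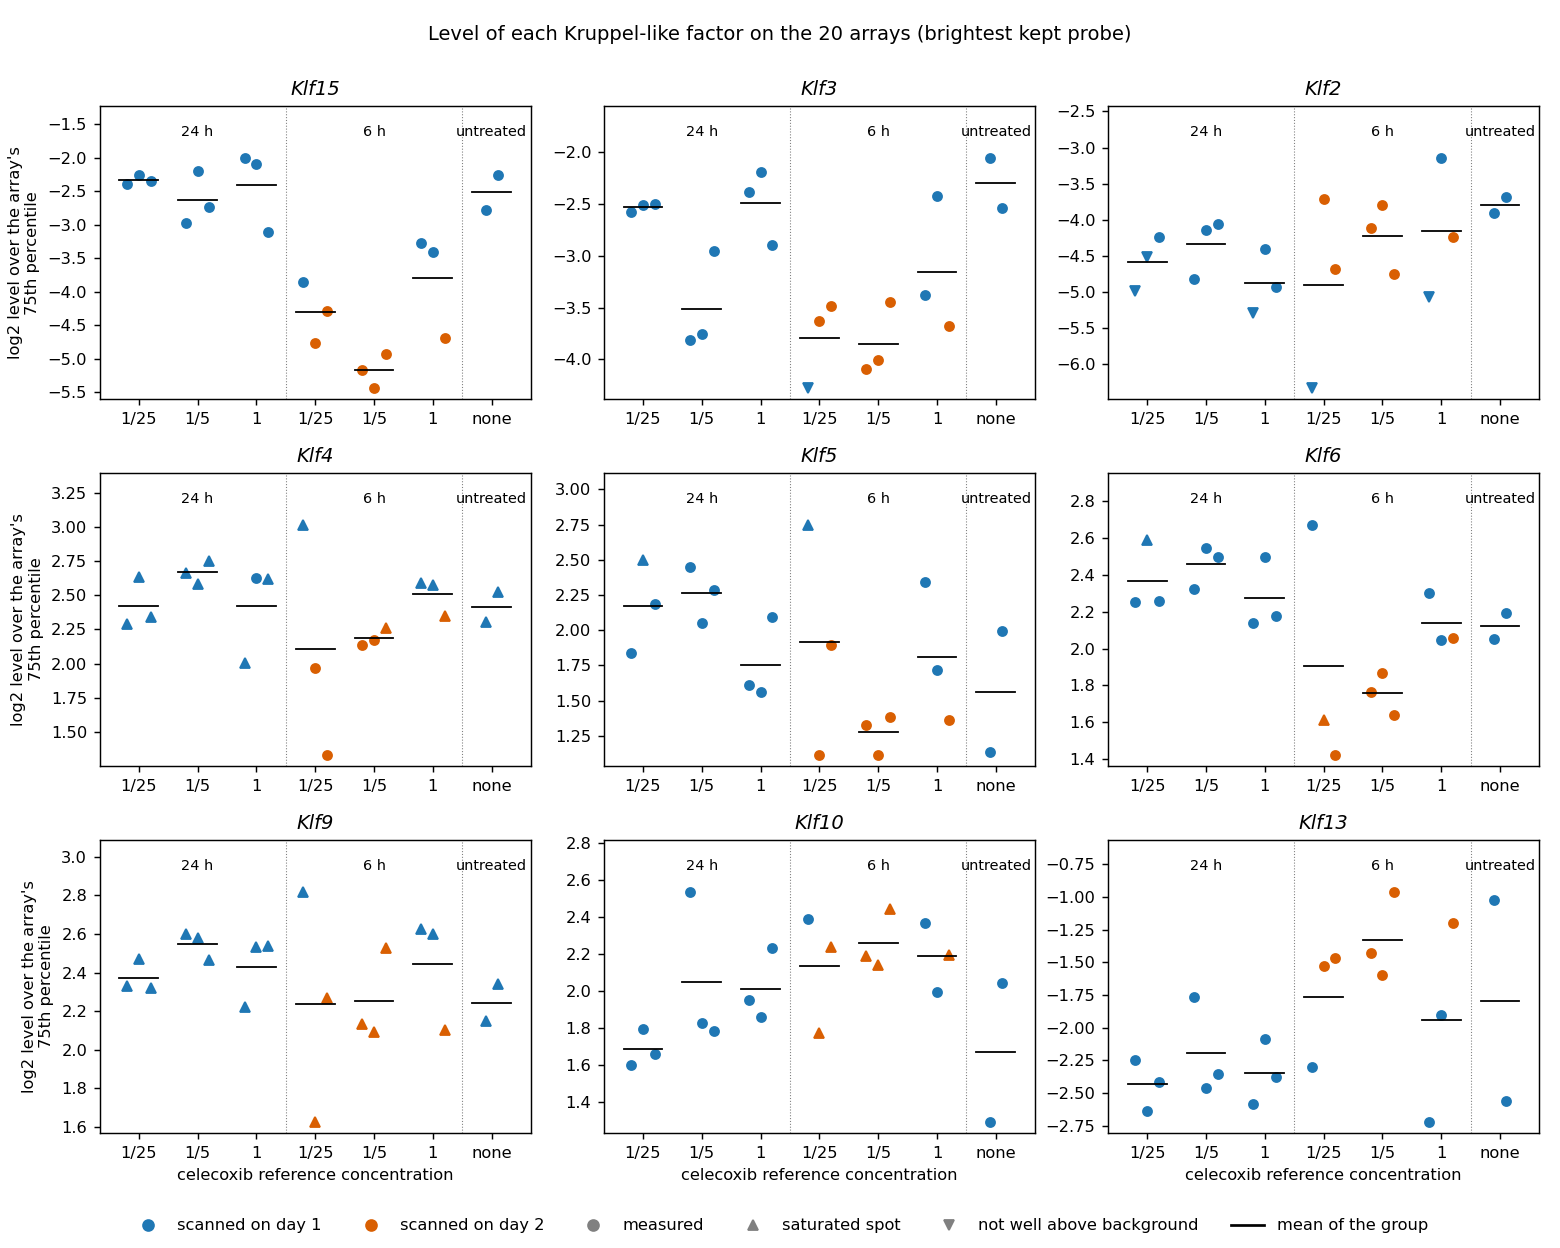
Level of each Kruppel-like factor on every array (vertical axes, log2 of the signal over the array's 75th percentile), by group along the horizontal axes, with the 24 h groups left, the 6 h groups in the middle and untreated cells right. Colour gives the scan day, triangles mark saturated spots (up) and spots not well above background (down), and lines are group means. For Klf15 all 9 arrays at 24 h lie above all 9 at 6 h.

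Klf15 is a transcription factor of cardiac and skeletal muscle that glucocorticoids induce and whose messenger RNA cycles over the day. Its probe lies at chr4:124971236-124971295 on the plus strand of build rn3 and was well above background on all 20 arrays and saturated on none. This single probe was dim, with a mean level of -3.35. Its mean signal was 401 at 1/5 for 6 h, against 2207 in untreated cells. A Klf3 spot with a signal of 398, on celecoxib 1/25 for 6 h replicate 1, was not well above background. After 24 h, Klf15 read -2.40, -2.26 and -2.35 at 1/25, then -2.98, -2.21 and -2.74 at 1/5, and -2.01, -2.10 and -3.11 at 1. After 6 h, it read -3.85, -4.77 and -4.29 at 1/25, then -5.17, -5.44 and -4.92 at 1/5, and -3.28, -3.41 and -4.69 at 1. Untreated cells read -2.79 and -2.26. Every array at 24 h was above every array at 6 h, and every array at 6 h was below both untreated arrays, while the 24 h and untreated arrays overlapped.

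Over the 9 arrays of each time, Klf15 averaged -2.46 ± 0.39 at 24 h and -4.42 ± 0.77 at 6 h (SD, n = 9 each), and untreated cells averaged -2.52 ± 0.38 (SD, n = 2). With the scan day in the fit, Klf15 was 1.29 higher at 24 h than at 6 h on the log2 scale (SE 0.27, 95% interval 0.708 to 1.87), which is 2.44-fold, with an adjusted p of 0.0161 in limma. A separation of all 9 arrays at 24 h above all 9 at 6 h was seen in 0.632% of genes. The summed level of the 11 cardiomyocyte markers ran from 4.46 to 5.49 at 24 h, from 4.30 to 5.69 at 6 h and from 4.91 to 4.94 in untreated cells, and 0 of the 11 were called between 24 h and 6 h. Since bulk RNA is pooled over cells, fewer cells that express a gene and less RNA per cell cannot be told apart.

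The scan day moved with the time points, and Klf15 was itself lower on scan day 2 by 1.02 (SE 0.32, adjusted p = 0.0239 in limma). Within the 6 h arrays, it averaged -4.88 ± 0.40 on day 2 (SD, n = 6) and -3.51 ± 0.30 on day 1 (SD, n = 3). Within single groups, the day 2 mean minus the day 1 mean was -1.35 at concentration 1 and -0.68 at 1/25. The 3 arrays at 6 h from day 1 (-3.28, -3.41 and -3.85) were still below all 9 arrays at 24 h, which were all from day 1. That separation of 9 against 3 arrays was seen in 6.23% of genes. The slides also moved with the time points. Slides 2 and 3 held only 24 h arrays, and slides 5 and 6 only 6 h arrays. Slide 4 held the untreated arrays with replicates 1 and 2 of celecoxib 1 for 6 h. Only slide 1 held both times, with celecoxib 1/25 for 6 h replicate 1 and celecoxib 1 for 24 h replicate 1. For most arrays, slide and time can therefore not be told apart. Without the scan day term, the difference between 24 h and 6 h was 1.96 (adjusted p = 5.72e-05 in limma).

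At single concentrations, Klf15 was higher at 24 h than at 6 h by 1.29 at 1/25 (adjusted p = 0.0746 in limma), by 1.52 at 1/5 (adjusted p = 0.244) and by 1.05 at 1 (adjusted p = 0.115), none of which passed. These 3 comparisons called 2.29%, 0.0252% and 1.4% of all genes, and 2, 1 and 1 of the 9 Kruppel-like factors had an unadjusted p below 0.05 in them, as did 19.6%, 9.31% and 16.6% of all genes. Within scan day 1 alone, limma gave 1.51 at 1/25 (adjusted p = 0.108) and 0.94 at 1 (adjusted p = 0.233), where the 6 h side at 1/25 is 1 array that is assumed to vary like the other groups, and no array of 1/5 at 6 h was scanned on that day. The effect of concentration 1 over 1/25 on Klf15 was -0.07 at 24 h and 0.18 at 6 h, and the difference of these effects was -0.24 (adjusted p = 0.995 in limma).

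Against untreated cells, Klf15 was lower after 6 h by 1.11 at 1/25, by 1.64 at 1/5 and by 0.93 at 1, with adjusted p-values of 0.0741, 0.0846 and 0.0989 in limma. None of these passed. The mean over the 3 concentrations at 6 h, a comparison added after the values were seen, was 1.23 lower than untreated (SE 0.36, 95% interval -1.98 to -0.473), which is 2.34-fold, with an adjusted p of 0.0393 in limma. This comparison called 11.4% of all genes and 8.16% lower, and every array was below both untreated arrays for 8.43% of genes. The call was lost without celecoxib 1/25 for 6 h replicate 1 (-0.93, adjusted p = 0.295), without untreated replicate 1 (-1.49, adjusted p = 0.121) or 2 (-0.96, adjusted p = 0.117), and, at -1.31 to -1.18, without replicate 1 of celecoxib 1 for 6 h, 1 or 2 of 1/5 for 6 h, 3 of 1/5 for 24 h or 3 of 1/25 for 24 h. It was also lost after normexp (-0.669, adjusted p = 0.189), after quantile normalization (-0.68, adjusted p = 0.377) and in the authors' deposited value table (-0.80, adjusted p = 0.148). The slide as a random block with no scan day term (-1.56, adjusted p = 0.0579 in limma) and the replicate block (-1.21, adjusted p = 0.0557) lost it too. So did no filter on dim probes (-1.23, adjusted p = 0.0581) and leaving out the 2 arrays that stand apart (-1.46, adjusted p = 0.0835). The mean over the concentrations at 24 h differed from untreated by 0.06 (95% interval -0.547 to 0.666), in a comparison that called 2.46% of all genes and 0 of the 9 Kruppel-like factors.

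The Klf15 call between 24 h and 6 h was lost without celecoxib 1/25 for 6 h replicate 1 (0.989, adjusted p = 0.333 in limma). It was also lost after normexp background correction (0.894, adjusted p = 0.0889), quantile normalization (1.13, adjusted p = 0.105) and in the authors' deposited value table (1.16, adjusted p = 0.0515).

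**Figure D2:**
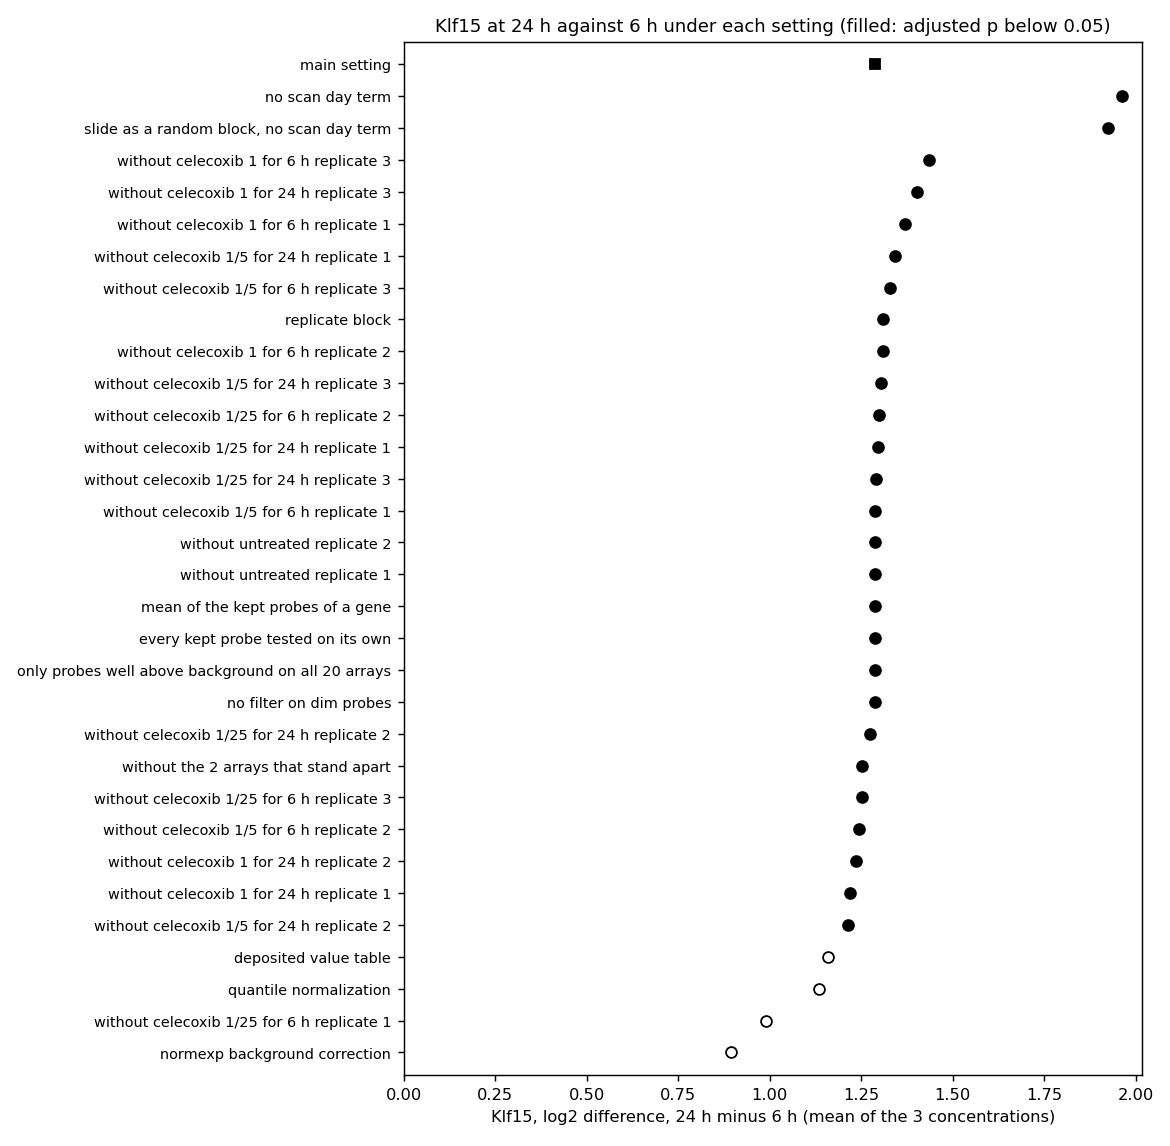
Klf15 difference between 24 h and 6 h, mean of the 3 concentrations (horizontal axis, log2), in the reported fit (square) and under each other processing of the data (rows). All points lie between 0.894 and 1.96, and the open ones mark the settings in which the adjusted p was not below 0.05.

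Genes known to depend on KLF15, which include enzymes of branched-chain amino acid and fatty acid oxidation, were listed from general knowledge, and 8 of 12 could be tested. Between 24 h and 6 h, where 4.52% of all genes were called, 0 of the 8 were called higher and 0 lower. Their median difference was 0.09, against -0.01 over all genes. Bckdha and Bckdhb, subunits of the branched-chain ketoacid dehydrogenase, differed by 0.06 (adjusted p = 0.939 in limma) and -0.02 (adjusted p = 0.959), and Hadha, of mitochondrial fatty acid oxidation, by 0.65 (adjusted p = 0.377). The scan day effect was -1.80 on Bckdha (adjusted p = 0.00658 in limma) and -1.14 on Bckdhb (adjusted p = 0.00162). The small differences of these 2 genes therefore rest in part on the scan day term. Between celecoxib for 6 h and untreated cells, 1 of the 8 was lower, where 8.16% of all genes were called lower. This was Kcnip2, an auxiliary subunit of the transient outward potassium channel (-3.35, adjusted p = 0.0395 in limma). Kcnip2 was well above background on 7 of 20 arrays, among them 2 of the 3 arrays at 1/5 and 1 of the 3 at 1/25 for 6 h. It passed the filter only through the untreated cells, where both arrays were well above background. The filter thus favoured a lower value after celecoxib. The size of the difference is not well measured, and nothing is read from the call. Among genes that respond to glucocorticoids, 10 of 12 could be tested, and 1 was called higher between 24 h and 6 h, with a median of -0.01, and 2 lower between 6 h and untreated cells. Over all genes, 3.13% were called higher in the former and 8.16% lower in the latter comparison. Mt1a, a metallothionein, was higher at 24 h than at 6 h (0.77, adjusted p = 0.0377). Dusp1, a phosphatase of MAP kinases, and Mt1a were lower after 6 h than in untreated cells (-1.89, adjusted p = 0.0438, and -0.85, adjusted p = 0.0453), and Dusp1 was well above background on 15 of 20 arrays. Both were higher on scan day 2 (Dusp1 by 1.47, adjusted p = 0.037, and Mt1a by 0.79, adjusted p = 0.0168 in limma), so that these calls also rest in part on the scan day term.

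The 3 genes most like Klf15 over the 20 arrays, once the scan day term was subtracted, were Slc24a3, a sodium, calcium and potassium exchanger (Pearson r = 0.923), Ccnd3, a cyclin (r = 0.921), and Cdc42ep2, an effector of Cdc42 (r = 0.921), among 5439 genes searched. Without that subtraction the correlations were 0.873, -0.611 and 0.250, so that only the likeness of Slc24a3 did not rest on the subtracted term. These are descriptions over arrays that share groups and scaling.

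Klf3 encodes a repressor that recruits CtBP. Its probe lies at chr14:46217113-46217172 on the minus strand of build rn3 and was well above background on all arrays but celecoxib 1/25 for 6 h replicate 1. The probes of Klf3 and of Klf2 are printed as examples of genes read here by a single dim probe, as Klf15 also is.
Klf3 probe: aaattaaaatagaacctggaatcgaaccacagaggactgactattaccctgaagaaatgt
Klf2 probe: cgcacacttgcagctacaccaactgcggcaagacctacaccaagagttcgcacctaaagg
After 24 h, Klf3 read -2.58, -2.51 and -2.50 at 1/25, then -3.82, -3.76 and -2.95 at 1/5, and -2.39, -2.19 and -2.89 at 1. After 6 h, it read -4.28, -3.63 and -3.48 at 1/25, then -4.09, -4.00 and -3.45 at 1/5, and -3.37, -2.42 and -3.68 at 1. Untreated cells read -2.05 and -2.53. All 3 arrays at 1/25 for 6 h and all 3 at 1/5 for 6 h lay below both untreated arrays, as did the 3 arrays at 1/5 for 24 h, while the arrays at 1 for 6 h, and those at 1/25 and 1 for 24 h, overlapped with them. Over all genes, such a separation below untreated was seen in 19.2%, 31.4% and 19% in those 3 comparisons.

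Klf3 was 1.48 lower after celecoxib 1/25 for 6 h than in untreated cells (SE 0.46, 95% interval -2.45 to -0.508), which is 2.79-fold, with an adjusted p of 0.0482 in limma. Without celecoxib 1/25 for 6 h replicate 1, the array that was not well above background, the difference was -0.479 (adjusted p = 0.744). The adjusted p lay close to the threshold, and the call was also lost without untreated replicate 1 (-1.24, adjusted p = 0.283) and without celecoxib 1 for 6 h replicate 1 (-1.42, adjusted p = 0.0743). It was lost as well without each array of 1/5 for 6 h and of 1/25 for 24 h, and without replicate 1 or 2 of 1/5 or of 1 for 24 h, which left the difference at -1.48. It was not made after quantile normalization (-0.826, adjusted p = 0.279) or in the authors' deposited value table (-0.94, adjusted p = 0.126). It was also lost with the slide as a random block and no scan day term (-1.40, adjusted p = 0.189), with the replicate block (-1.39, adjusted p = 0.0705), after normexp (-1.12, adjusted p = 0.0675) and without the 2 arrays that stand apart (-1.33, adjusted p = 0.238). With no filter on dim probes, or with every probe tested on its own, the adjusted p was 0.0704 or 0.051. Within scan day 1 alone, the difference was -1.98 (adjusted p = 0.0325), where that 1 array is the whole group and is assumed to vary like the other groups. At 1/5 and at 1 for 6 h, the difference from untreated was -1.52 (adjusted p = 0.134 in limma) and -0.85 (adjusted p = 0.172), and their mean with 1/25 was -1.29 (adjusted p = 0.054). After 24 h, Klf3 differed from untreated by -0.24 at 1/25, by -1.21 at 1/5 (adjusted p = 0.108 in limma) and by -0.20 at 1.

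Between 24 h and 6 h, Klf3 differed by 0.74 over the 3 concentrations (adjusted p = 0.192 in limma), and without the scan day term by 0.76 (adjusted p = 0.0143). The low values at 1/5 for 24 h gave a difference of 1.02 for concentration 1 over 1/5 (adjusted p = 0.411 in limma) and of -0.98 for 1/5 over 1/25 (adjusted p = 0.631). The scan day effect on Klf3 was -0.03 (adjusted p = 0.958), which averages a day 2 mean minus day 1 mean of -0.78 at concentration 1 and 0.72 at 1/25. Over the 20 arrays, with the scan day term subtracted, the levels of Klf15 and Klf3 had a Pearson r of 0.72, the highest of any pair that held Klf15. Klf15 ran opposite to Klf4 (r = -0.69), Klf9 (r = -0.67) and Klf10 (r = -0.65), read by probes saturated on 15, 20 and 6 arrays. The arrays share groups and scaling, and the part of the scaling in these values was not tested.

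**Figure D3:**
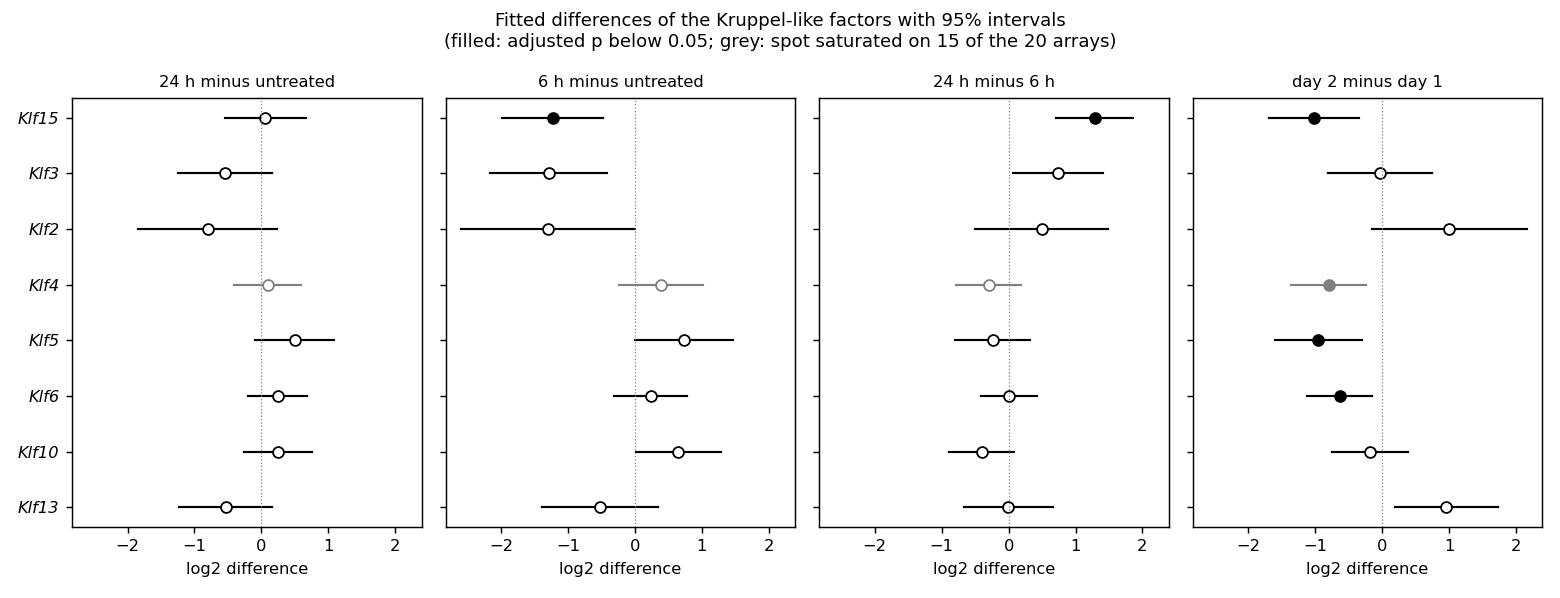
Difference of each Kruppel-like factor but Klf9, whose brightest probe was saturated on all arrays, with 95% intervals (horizontal axes, log2), for 24 h and for 6 h against untreated, for 24 h against 6 h and for scan day 2 against day 1. Filled points have an adjusted p below 0.05. Klf15 between 24 h and 6 h lies at 1.29 with its interval above 0, and Klf4 is drawn in grey because its probe was saturated on 15 of 20 arrays.

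Klf2, a factor of endothelial cells under laminar flow, was read by a dim probe at chr16:17942542-17942601 on the minus strand of build rn3, which was not well above background on 5 of 20 arrays. After 24 h, Klf2 read -4.99, -4.52 and -4.24 at 1/25, then -4.82, -4.15 and -4.07 at 1/5, and -5.29, -4.41 and -4.94 at 1. After 6 h, it read -6.33, -3.71 and -4.68 at 1/25, then -4.11, -3.80 and -4.75 at 1/5, and -5.07, -3.14 and -4.24 at 1, and untreated cells read -3.91 and -3.68. All 9 arrays at 24 h lay below both untreated arrays, as for 7.82% of all genes, while the arrays at 6 h spanned a wider range than either. The difference from untreated was -0.81 for 24 h (adjusted p = 0.369 in limma) and -1.30 for 6 h (adjusted p = 0.151), with -1.78 at 1/25 for 6 h (adjusted p = 0.0884). With the scan day in the fit, Klf2 differed by 0.49 between 24 h and 6 h (adjusted p = 0.57 in limma), opposite in sign to the means, which were -4.60 at 24 h and -4.43 at 6 h. Its day 2 mean minus its day 1 mean was -0.13 at concentration 1 and 2.14 at 1/25, where day 1 held only the array at -6.33, which was not well above background.

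Klf4, a factor of flow-exposed endothelium and of smooth muscle switching that is also known from pluripotent cells, was read by a probe at chr5:73452107-73452166 on the minus strand of build rn3. Its probe was saturated on 15 of 20 arrays, which compresses its differences. Its levels ran from 2.01 to 2.75 at 24 h with a median of 2.62, and from 1.34 to 3.01 at 6 h with a median of 2.26, against 2.30 and 2.52 in untreated cells. The ranges of 24 h, 6 h and untreated cells over all concentrations overlapped. The 3 arrays at 1/5 for 6 h lay below both untreated arrays, as for 31.4% of all genes. The 3 arrays at 1/5 for 24 h, all saturated, lay above both. The share of all genes above in this way is not given here, and nothing is read from it. Klf4 averaged 2.50 at 24 h and 2.27 at 6 h. With the scan day in the fit, whose effect on Klf4 was negative and was measured on this mostly saturated probe, the sign was the opposite. The fitted difference between 24 h and 6 h was -0.30 (adjusted p = 0.472 in limma), and those from untreated were 0.09 for 24 h (adjusted p = 0.853) and 0.39 for 6 h (adjusted p = 0.364).

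ERK5 and MEF2 act upstream of KLF2 and KLF4, and 7 of 8 listed genes of that route could be tested. Between 24 h and 6 h, 1 of the 7 was higher, where 3.13% of all genes were called higher, and the median of the 7 was 0.22. It was Hdac5, a class IIa deacetylase that binds MEF2 (1.32, adjusted p = 0.00793 in limma). Hdac5 had a value on 18 of 20 arrays, and its scan day effect was 0.77 (adjusted p = 0.0359 in limma). Between celecoxib for 6 h and untreated cells, 2 of the 7 were lower, where 8.16% of all genes were called lower. They were Hdac7, another such deacetylase (-1.23, adjusted p = 0.0185 in limma), and Map2k5, the kinase that activates ERK5 (-2.20, adjusted p = 0.0341). The Map2k5 difference rests in part on its scan day effect of 2.15 (adjusted p = 0.00914 in limma), since Map2k5 averaged -2.77 at 1/25, -2.25 at 1/5 and -3.25 at 1 after 6 h, against -1.99 in untreated cells. Hdac7 was also lower after 24 h than in untreated cells (-1.01, adjusted p = 0.0386 in limma).

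Of the genes known to depend on KLF2 or KLF4 in endothelium, 8 of 10 could be tested, and 2 were called lower between 24 h and 6 h, with a median of 0.09, and 2 higher between 6 h and untreated cells. Calls in either direction were made for 4.52% of all genes in the former and 11.4% in the latter comparison. Ccl2, the monocyte chemoattractant, was lower at 24 h than at 6 h (-1.73, adjusted p = 0.00206 in limma), and higher after celecoxib for 6 h than in untreated cells (1.87, adjusted p = 0.0059 in limma). Both sizes rest in part on the scan day term, since Ccl2 was 0.91 lower on day 2 (adjusted p = 0.0306 in limma). Its means at 1/25, 1/5 and 1 were -1.13, -0.98 and -1.49 after 24 h and 0.29, -0.32 and -0.19 after 6 h, against -1.33 in untreated cells. Of the endothelial markers, 3 of 7 passed the filter on dim probes. Their summed level ran from 1.34 to 1.82 at 24 h, from 1.72 to 2.34 at 6 h and from 1.62 to 1.64 in untreated cells. The summed macrophage level ran from 1.47 to 1.93 at 24 h, from 0.81 to 1.88 at 6 h and from 1.91 to 2.15 in untreated cells. Signals were summed before log2, so that the brightest marker makes up most of each sum. For endothelium that was Kdr (mean level 1.69, against -4.21 for Pecam1 and -4.56 for Cdh5). For macrophages it was Cd14 (1.11, with Ptprc next at -1.57). The part of these cells in the differences was not tested.

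Klf5 drives proliferation of smooth muscle cells and fibroblasts. Its brightest probe lies at chr15:83133888-83133947 on the plus strand of build rn3, and its other probe was the one of the 13 that did not pass the filter. Klf5 ran from 1.56 to 2.50 at 24 h with a median of 2.09, and from 1.12 to 2.75 at 6 h with a median of 1.38, against 1.14 and 1.99 in untreated cells. The ranges of 24 h, 6 h and untreated cells over all concentrations overlapped, and 2 arrays were saturated. The 3 arrays at 1/5 for 24 h lay above both untreated arrays and above those at 1/5 for 6 h. The share of all genes separated in this way is not given here, and nothing is read from it. The difference between 24 h and 6 h was -0.24 (adjusted p = 0.633 in limma), and the differences from untreated were 0.50 for 24 h (adjusted p = 0.323) and 0.74 for 6 h (adjusted p = 0.149). Among 6 h arrays, the 6 of day 2 ran from 1.12 to 1.89 and the 3 of day 1 from 1.72 to 2.75, and the scan day effect was -0.95 (adjusted p = 0.0275 in limma). The gene most like it with the scan day term subtracted was Nr3c1, the glucocorticoid receptor (Pearson r = 0.943), but without the subtraction that correlation was -0.153, whereas the correlation with Arid4b was 0.919 with it and 0.927 without it.

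Klf6, a factor induced by injury, was read by probes at chr17:75589643-75589702 and chr17:75592383-75592442, both on the minus strand of build rn3. Its brighter probe ran from 2.14 to 2.59 at 24 h and from 1.42 to 2.67 at 6 h, against 2.05 and 2.19 in untreated cells, and was saturated on 2 arrays. The difference between 24 h and 6 h was 0.01 (adjusted p = 0.982 in limma), and those from untreated were 0.24 for 24 h and 0.23 for 6 h. On scan day 2 the probe was lower by 0.64 (adjusted p = 0.0437 in limma), with 1.42 to 2.06 on the 6 day 2 arrays and 2.05 to 2.67 on the 3 day 1 arrays at 6 h. The dimmer probe differed by -0.23 between 24 h and 6 h and by -0.47 between the scan days (adjusted p = 0.45).

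Klf10, an early gene of the TGF-beta response, was read by 2 probes that differed with the scan day. The brighter, at chr7:73842027-73842086 on the minus strand of build rn3, was saturated on the 6 day 2 arrays and on none of day 1. It averaged 1.68 ± 0.10 at 1/25, 2.05 ± 0.42 at 1/5 and 2.01 ± 0.19 at 1 after 24 h, and 2.13 ± 0.32, 2.26 ± 0.16 and 2.19 ± 0.19 at the same concentrations after 6 h (SD, n = 3 each), against 1.67 ± 0.53 in untreated cells (SD, n = 2). The difference between 24 h and 6 h was -0.40 (adjusted p = 0.328 in limma), and the difference of 6 h from untreated was 0.65 (adjusted p = 0.145).

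The dimmer Klf10 probe, at chr7:73842903-73842962, ran from -1.57 to -0.30 on day 2 and from -5.88 to -2.68 on day 1. The ranges did not overlap, and the scan day effect was 3.41 (SE 0.56, adjusted p = 0.000623 in limma). Every array of day 2 was higher than every array of day 1 for 7.11% of all genes. With the scan day in the fit, the dimmer probe differed by 0.40 between 24 h and 6 h (adjusted p = 0.679) and by -1.15 between 6 h and untreated (adjusted p = 0.22). These values rest on the scan day term. The brighter probe was saturated on every array of day 2, so that its own scan day effect was not measured, and no direction of Klf10 is drawn from either probe.

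**Figure D4:**
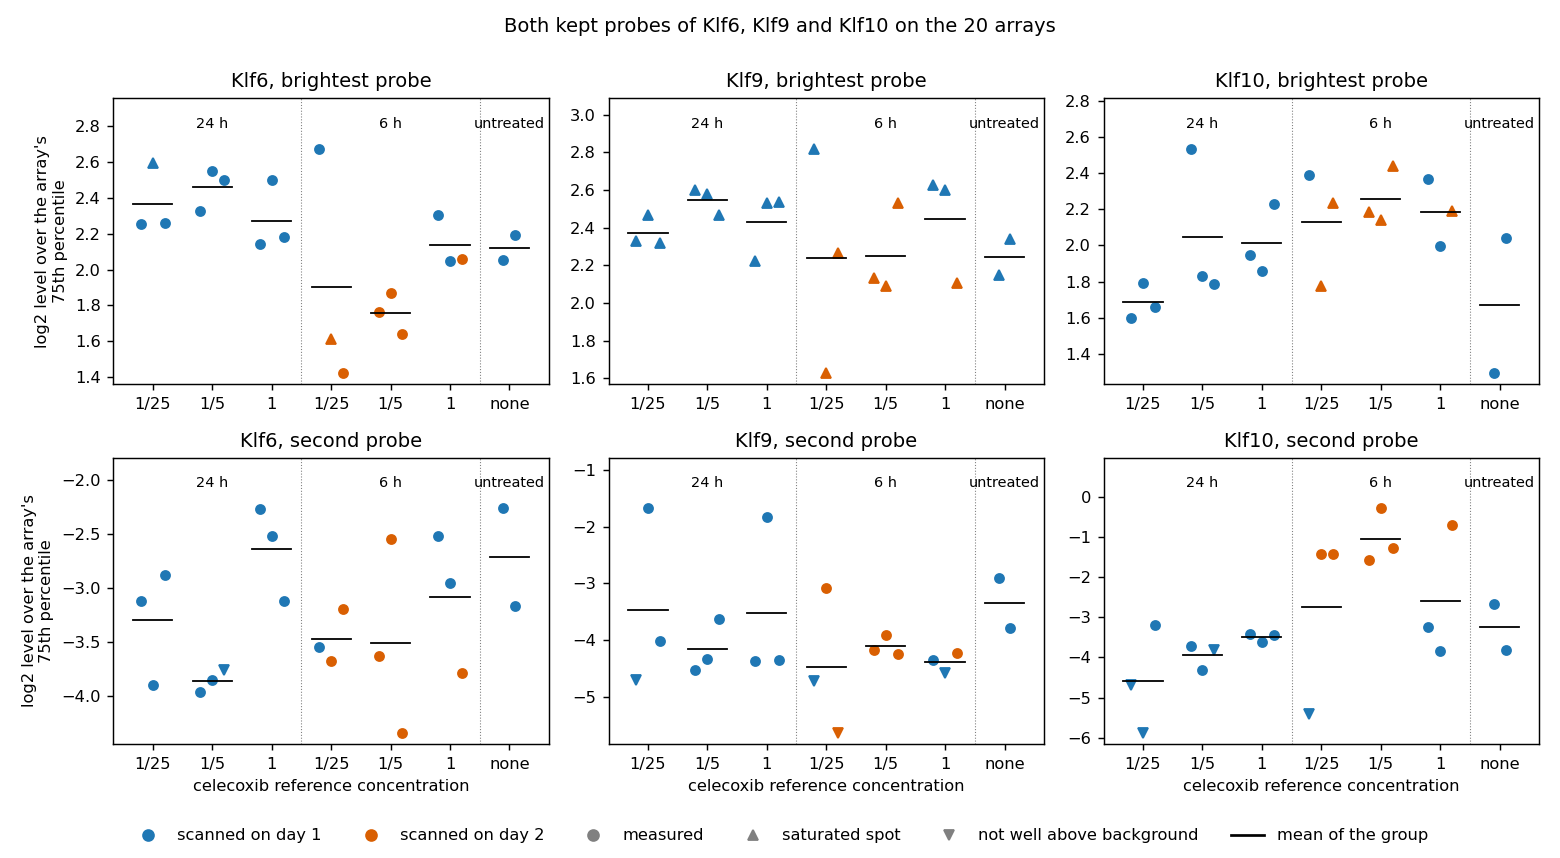
Levels of the 3 genes with a second probe that passed the filter (Klf6, Klf9 and Klf10), for each probe on every array (vertical axes, log2 of the signal over the array's 75th percentile), by group with 24 h left, then 6 h, then untreated cells. The dimmer Klf10 probe lies between -1.57 and -0.30 on the 6 arrays of scan day 2 and between -5.88 and -2.68 on the others.

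Genes known to depend on KLF4 or KLF5 in smooth muscle and fibroblasts (8 of 9 tested), and those known to depend on KLF6 or KLF10 (7 of 8 tested), held no call between 24 h and 6 h or between either time and untreated cells. Of all genes, 4.52% were called between 24 h and 6 h, and 2.46% for 24 h and 11.4% for 6 h against untreated cells. The summed level of the smooth muscle markers ran from 2.62 to 3.17 at 24 h, from 2.36 to 3.11 at 6 h and from 2.98 to 3.20 in untreated cells, and that of the fibroblast markers from 4.12 to 4.77 at 24 h, from 4.01 to 4.80 at 6 h and was 4.30 in both untreated arrays.

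Klf9, a factor that thyroid hormone and glucocorticoids induce, had its brightest probe, at chr1:226609648-226609707 on the plus strand of build rn3, saturated on all 20 arrays, so that no difference is given from it. Its dimmer probe, at chr1:226585750-226585809, was not well above background on 4 arrays. That probe averaged -3.46 ± 1.58 at 1/25, -4.17 ± 0.47 at 1/5 and -3.52 ± 1.47 at 1 after 24 h, and -4.48 ± 1.29, -4.12 ± 0.18 and -4.39 ± 0.18 at the same concentrations after 6 h (SD, n = 3 each), against -3.35 ± 0.61 in untreated cells (SD, n = 2). It differed by 0.81 between 24 h and 6 h (adjusted p = 0.543 in limma) and by -1.18 between 6 h and untreated (adjusted p = 0.386).

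Klf13, which works with GATA4 in heart development in frogs, was read at chr1:118446635-118446694 on the minus strand of build rn3. It averaged -2.43 ± 0.20 at 1/25, -2.19 ± 0.38 at 1/5 and -2.35 ± 0.25 at 1 after 24 h, and -1.76 ± 0.47, -1.33 ± 0.33 and -1.94 ± 0.76 at the same concentrations after 6 h (SD, n = 3 each), against -1.79 ± 1.09 in untreated cells (SD, n = 2). The higher 6 h values lay on scan day 2, where the arrays ran from -1.59 to -0.96, against -2.72 to -1.90 on day 1. The share of all genes split in this way within 6 h is not given here, and 32.4% of all genes were called between scan days. With the scan day in the fit (effect 0.96, adjusted p = 0.0541), Klf13 differed by -0.01 between 24 h and 6 h (adjusted p = 0.991 in limma) and by -0.53 from untreated at both times (adjusted p = 0.374 for 24 h and 0.373 for 6 h).

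Between scan days, 5 of the 9 Kruppel-like factors were called lower on day 2 (Klf4, Klf5, Klf6, Klf9 and Klf15), where 32.4% of all genes were called and 17.2% called lower. Of these, the brightest probe of Klf9 was saturated on all arrays and that of Klf4 on 15, and nothing is read from the count. The scan day effect on Klf4 was -0.80 (adjusted p = 0.0315 in limma). Without celecoxib 1/25 for 6 h replicate 1 it was -0.235 for Klf4 (adjusted p = 0.671), -0.664 for Klf5 (adjusted p = 0.355) and -0.117 for Klf6 (adjusted p = 0.81). The Klf4 call was also lost after quantile normalization (-0.25, adjusted p = 0.535) and with the replicate block (-0.90, adjusted p = 0.0541). That of Klf15 was lost without celecoxib 1 for 6 h replicate 3 (-0.68, adjusted p = 0.284), and that of Klf6 was kept in 8 of the 20 fits that left out 1 array.

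The SP proteins bind the same GC-rich elements, and 5 of the 8 SP genes could be tested. Sp2 was higher at 24 h than at 6 h (1.16, adjusted p = 0.0371 in limma) and lower after 6 h than in untreated cells (-1.82, adjusted p = 0.0111), and Sp8 was also lower after 6 h (-1.60, adjusted p = 0.0184). Over all genes, 3.13% were called higher at 24 h than at 6 h and 8.16% lower after 6 h than in untreated cells. The Sp2 differences rest in part on the scan day term, since Sp2 was 1.36 higher on day 2 (adjusted p = 0.00855 in limma). Its means at 1/25, 1/5 and 1 were -2.00, -1.84 and -2.01 after 24 h and -2.05, -1.80 and -2.75 after 6 h, against -1.29 in untreated cells. Of the other KLF genes, 3 of 8 could be tested (Klf1, Klf7 and Klf11), and 0 were called between 24 h and 6 h or between either time and untreated cells. The same held for 11 of 13 listed cofactors and turnover factors, such as the CtBP corepressors, Sin3a and the ubiquitin ligase WWP1. Of all genes, 4.52% were called between 24 h and 6 h, and 2.46% for 24 h and 11.4% for 6 h against untreated cells.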

How the data were processed

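Spot brightness was deposited as intensity on a linear scale, read per the file headers by Agilent's Feature Extraction software, release 9.5.3.1. The authors' deposited value table holds a linear ratio. Checked against the scanner files, 99.8% of its 820240 values lie within 0.05 on the log2 scale of the processed signal over the array's median and then over the untreated mean, and column medians were 0.826 to 1.27. The scanner files were used and the table served as an alternative.

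The processed signal was taken to log2 and the 75th percentile of the array subtracted. A probe that 1 or more groups showed well above background on each of their arrays was kept (31739 of 41012), and the brightest kept probe stood for each of 27766 genes. All 20 arrays were fitted with group means and the scan day in limma 3.58.1 (R 4.3.3, the data.table package at version 1.17.8, jsonlite 2.0.0, statmod 1.5.0), with 12 residual degrees of freedom (15.3 after moderation), two-sided tests and Benjamini-Hochberg adjustment over all genes, and an adjusted p below 0.05 was called. The fit was run on simulated data with noise drawn independently for each gene and array. That run therefore says nothing about arrays that are alike within a slide. There were 16 planned comparisons and 2 added ones.

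The 9 genes, the gene lists and the tests were chosen with earlier results of these data known. All 9 genes are named. Of each list, at most 2 called genes per comparison with the smallest adjusted p may be named, beside genes given as examples of a list without a call, which were chosen after their values were seen. In the endothelial list, 1 called gene is not reported here. The 3 genes with the highest correlation to a member may be named as a description. The alternatives were no scan day term, scan day 1 alone, slide as a block, normexp (offset 50), quantile normalization, other filters and probe rules, the deposited table, the replicate number as a block, and leaving out arrays. Sequences of promoters come from RefSeq (GRCr8) and those of probes from the deposited files (rn3). On arrays, the number of arrays limits the precision.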

Additional observations from a re-analysis of the deposited data

Results flagged for a closer look

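The Klf15 level differed between the times of celecoxib exposure, 24 h and 6 h. It was higher at 24 h by 1.29 (adjusted p = 0.0161 in limma). Each of the 9 arrays at 24 h was above each of the 9 at 6 h, as for 0.632% of genes. The call was lost without celecoxib 1/25 for 6 h replicate 1 (adjusted p = 0.333 in limma). It was also lost after normexp (adjusted p = 0.0889), after quantile normalization (adjusted p = 0.105) and in the deposited value table (adjusted p = 0.0515). The 6 h arrays were split over 2 scan days and the 24 h arrays were not, and only slide 1 held both times.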

How the results depend on the processing

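The number of Kruppel-like factors called was 0 in most comparisons. After 1/25 for 6 h, the count was again 1 in 2 of 12 other settings and in 2 of 20 fits that left out 1 array. The gene called was not always Klf3. Klf3 itself was called in 3 of 11 other settings, among them scan day 1 alone, and in 7 of the 20 fits. Without the scan day term, 2 were called after 1/5 for 6 h, 2 after 1/25 for 6 h, 2 between 24 h and 6 h, 1 between these times at 1/5 and 1 at 1/25. For 1/25 for 6 h against untreated, 0 were called with the slide as a random block and no scan day term (correlation 0.345), normexp or quantile normalization. In the same comparison, 0 were called with no filter on dim probes, only probes above background on all arrays or every probe tested on its own. The replicate block, and leaving out the 2 arrays that stand apart, also gave 0 there. Scan day 1 alone leaves 1 array in that group, and its count is not given. Between 24 h and 6 h, 0 were called with normexp, quantile normalization or the deposited table, and at 1/25 without the 2 arrays that stand apart, 1 was. After 1/5 for 24 h, normexp called 1. Between scan days, where 5 were reported, quantile normalization called 1 and the replicate block 2. In their deviations from group means, 9 of 57 pairs of arrays with the same replicate number correlated above 0.1, as did 29 of 114 pairs with different numbers. These deviations still held the scan day, so that the check cannot say whether the replicate numbers pair the samples. With 1 array left out, the count ran from 0 to 3 after 1/25 for 6 h, from 0 to 7 between scan days and from 0 to 1 after 1 or 1/5 for 6 h, after 1/25 for 24 h, between 24 h and 6 h and at 1 and 1/25 between these times, and was 0 elsewhere. The Klf15 difference between 24 h and 6 h ran from 0.989 to 1.44 with 1 array left out and was called in 19 of 20, and its difference of 6 h from untreated ran from -1.90 to -0.669 over 11 other settings and was called in 4. The Klf3 difference between 24 h and 6 h at 1/5 ran from -0.44, without celecoxib 1/25 for 6 h replicate 1, to 1.06 with 1 array left out. The cause was not tested for any of these. Over all genes, 1255 were called between 24 h and 6 h, against 5635 without the scan day term, and 3215 after 1/25 for 6 h, against 15 with the slide as a random block and no scan day term. The 2 arrays of untreated cells limit every comparison with them, and dim probes (Klf2, Klf3, Klf15) and saturated ones (Klf4, Klf9 and, on scan day 2, Klf10) limit those of these genes.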
